A study of Mus musculus with 4 samples.

Results

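The mitochondrially encoded genes are the genes carried by the mitochondrial chromosome (chrM) itself. They were taken here as every entry of the expression table located on chrM, all with symbols that start with mt-. Of 34721 entries in the table, 22 met this rule: all 13 mRNAs and both rRNAs that the GENCODE M21 annotation places on chrM, and 7 of its 22 tRNA genes. The other 15 tRNA genes were not analysed here. The values came from 4 mouse oral cancer cell lines, with 1 RNA-seq library each. AOC3 and AOC11 were grown from the primary oral tumors of separate male C57BL/6 mice, induced with the carcinogen DMBA (7,12-dimethylbenzanthracene). Per the study, young adult mice had it applied to the buccal mucosa with a cotton swab over several months, until overt cancer appeared, so the tumors came from older animals. AOC3-LN and AOC11-LN came from a lymph node metastasis of the same 2 mice, respectively. All of the lines carry Trp53 mutations per the study, were passed through a flank tumor in a mouse and freed of fibroblasts before they were kept in culture. Because each line was measured once, no value below has a replicate error, and a difference between lines describes these libraries.

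The mitochondrial genome is a small circle that encodes core subunits of oxidative phosphorylation complexes I, III, IV and ATP synthase, together with the rRNAs and tRNAs needed to translate them inside the organelle. Both strands are transcribed as long precursors by the nuclear-encoded polymerase POLRMT. The tRNAs that lie between the mRNAs are cut out of these precursors, and most of the released mRNAs receive short poly(A) tails. Most of the subunits of the same complexes, and all of the proteins that copy, transcribe and translate the circle, come from nuclear genes.

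Levels are given as FPKM, fragments per kilobase of transcript, scaled to the mapped fragments of the library, as the authors deposited them. FPKM is a level per length, so genes may be compared with each other on it. Differences between lines are differences of log2(FPKM + 1) after quantile normalization, which gives all 4 lines the same distribution of values. Quantile normalization sets the value of a gene by its rank, and most mitochondrial mRNAs lie at the very top of the ranking where few genes share the scale, so the difference without it is given alongside. A log2 difference past 1 in size, a doubling or halving on this scale, was used for counts, among the 14165 entries that reached 1 FPKM in at least 1 line. Of the 22 mitochondrial genes, 18 passed that minimum: the 13 mRNAs, the 2 rRNAs and 3 tRNAs.

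The libraries were estimated from the steps in the FPKM values of low genes to hold between 28300000 (AOC3-LN) and 33600000 fragments. For the 10 mitochondrial mRNAs longer than 500 bases this corresponds to about 4000 to 298900 fragments per gene and line, with a relative counting error of at most 1.58%. The lines showed the markers of epithelial cells, with all 8 expressed and a summed level of 3297 to 3777 FPKM. None of 8 fibroblast markers reached 1 FPKM (summed level 0.246 to 1.17 FPKM), and none of 5 endothelial markers did (0.262 to 0.401 FPKM). Of 7 macrophage markers 3 reached 1 FPKM (summed level 16.8 to 33.8 FPKM, highest in AOC11, with Adgre1 listed at 0 in all of the lines), and of 6 T cell markers Trac alone reached it, with Cd3e, Cd4 and Cd8a listed at 0 throughout. Their part in the results below was not tested.

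Complex IV, cytochrome c oxidase, passes electrons to oxygen, and its catalytic subunit mt-Co1 (chrM:5328-6872, plus strand) was among the highest entries of the whole table. Its level was 6437 FPKM in AOC3, 5669 FPKM in AOC3-LN, 5664 FPKM in AOC11 and 3537 FPKM in AOC11-LN. It ranked 5, 5, 4 and 13 among all entries in the same order of lines. mt-Co2 (chrM:7013-7696), which holds the copper site that accepts electrons from cytochrome c, stood at 3062 FPKM in AOC3, 3007 FPKM in AOC3-LN, 2569.7 FPKM in AOC11 and 1531 FPKM in AOC11-LN. mt-Co3 (chrM:8607-9390), the remaining core subunit, was nearly flat at 1799 FPKM, 1833 FPKM, 1705 FPKM and 1663 FPKM. So AOC11-LN was the lowest line for all 3, clearly for mt-Co1 and mt-Co2 and by little for mt-Co3.

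ATP synthase makes ATP from the proton gradient. Its mitochondrially encoded subunits mt-Atp8 and mt-Atp6 are read from 1 transcript with overlapping reading frames. The annotated genes share 43 bases (chrM:7927-7969, plus strand, GRCm38/mm10), so a fragment from that stretch cannot be given to either gene alone. The following sequences, from the GENCODE M21 transcripts, are shown because this overlap and the small size of mt-Atp8 bear on the values of both genes. They are mt-Atp8 as a whole (204 bases, chrM:7766-7969) and the first 90 bases of mt-Atp6 (chrM:7927-8016), with the shared bases in capitals.
mt-Atp8: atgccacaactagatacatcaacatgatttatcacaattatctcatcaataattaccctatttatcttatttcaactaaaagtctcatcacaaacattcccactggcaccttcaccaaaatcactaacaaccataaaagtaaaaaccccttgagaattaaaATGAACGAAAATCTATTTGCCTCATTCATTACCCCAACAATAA
mt-Atp6: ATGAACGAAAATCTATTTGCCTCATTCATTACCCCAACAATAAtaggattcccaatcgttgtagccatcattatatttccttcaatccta

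mt-Atp8 (ENSMUSG00000064356.3) was listed at 10081 FPKM in AOC3, 8353 FPKM in AOC3-LN, 6506 FPKM in AOC11 and 1464 FPKM in AOC11-LN. As listed, it was the highest mitochondrial mRNA in all lines but AOC11-LN, where its rank among all entries was 76 instead of 1 or 2. With the chromosome 1 copies described below added to the genes, mt-Co1 (6965.6 FPKM) stood above it in AOC11. No annotated copy of mt-Atp8 was found, so nothing was added to it, and this order rests on correcting mt-Co1 alone. The values of mt-Atp6 (chrM:7927-8607), the subunit that forms the proton channel, were 3371 FPKM, 2939 FPKM, 2062 FPKM and 1102 FPKM in AOC3, AOC3-LN, AOC11 and AOC11-LN. For both genes the lines took the same order, with both AOC3 lines above both AOC11 lines. The ratio of mt-Atp8 to mt-Atp6 as listed was 2.99, 2.84 and 3.15 in AOC3, AOC3-LN and AOC11 and 1.33 in AOC11-LN, although both are carried by the same transcript. mt-Atp6 shares its fragments with a chromosome 1 copy (below), which lowers its listed level. With that copy added, mt-Atp6 stood at 6754.8 FPKM in AOC3 and at 2208.5 FPKM in AOC11-LN, there above mt-Atp8. Here too mt-Atp8 was left as listed, although the bases it shares with mt-Atp6 lie in that copy. Cufflinks divides by a length reduced for the size of the fragments. The reduction fitted to single-transcript genes was 163, 155, 182 and 160 bases in AOC3, AOC3-LN, AOC11 and AOC11-LN, close to the whole length of mt-Atp8. The part of this correction in the values of mt-Atp8 was not tested, and its differences are given with that limit.

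Complex I takes electrons from NADH and has 7 mitochondrially encoded subunits, all in its membrane arm. As listed, mt-Nd1 (chrM:2751-3707) and mt-Nd2 (chrM:3914-4951) were the highest of them. However, mt-Nd3, mt-Nd4l and mt-Nd4 share fragments with chromosome 1 copies (below). With those copies added, mt-Nd1 stayed highest but mt-Nd2 no longer came next in any line. In AOC3, mt-Nd4l then stood at 1212.1 FPKM and mt-Nd4 at 1142.2 FPKM. mt-Nd1 stood at 1717 FPKM in AOC3, 1762 FPKM in AOC3-LN, 2308 FPKM in AOC11 and 829 FPKM in AOC11-LN. mt-Nd2 stood at 1049 FPKM, 832 FPKM, 1391 FPKM and 421 FPKM. For both, AOC11 was the highest line and AOC11-LN the lowest. mt-Nd4 (chrM:10167-11544) had 807 FPKM, 660.2 FPKM, 918 FPKM and 359 FPKM, and mt-Nd5 (chrM:11742-13565), the subunit at the far end of the membrane arm, had 563 FPKM, 431 FPKM, 667 FPKM and 218 FPKM, in the same order of lines. mt-Nd6 (chrM:13552-14070) is the only mRNA encoded on the minus strand and overlaps mt-Nd5 by 14 bases, and it was listed at 612 FPKM, 477 FPKM, 756 FPKM and 344 FPKM. The library kit marks strand, but the counting is not stated to have used it, so fragments from the opposite strand at mt-Nd6 cannot be told apart from its own. All of mt-Nd2, mt-Nd4, mt-Nd5 and mt-Nd6 ran in the order AOC11, AOC3, AOC3-LN, AOC11-LN from highest to lowest.

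The short complex I genes followed the same order of lines at their ends. mt-Nd4l (chrM:9877-10173) was listed at 616 FPKM, 503 FPKM, 737 FPKM and 196 FPKM, and mt-Nd3 (chrM:9459-9806) at 375 FPKM, 377 FPKM, 422 FPKM and 284 FPKM, in AOC3, AOC3-LN, AOC11 and AOC11-LN. Both are under 500 bases and share the length limit of mt-Atp8 to a lesser degree. mt-Nd4l and mt-Nd4 are also read from 1 transcript and share 7 bases. Printed for that junction are the last 60 bases of mt-Nd4l (chrM:10114-10173, plus strand) and the first 60 bases of mt-Nd4 (chrM:10167-10226, plus strand), with the shared bases in capitals.
mt-Nd4l: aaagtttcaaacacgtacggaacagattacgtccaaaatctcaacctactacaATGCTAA
mt-Nd4: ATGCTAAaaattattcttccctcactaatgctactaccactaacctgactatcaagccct

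The ratio of mt-Nd4l to mt-Nd4 as listed was 0.763 in AOC3 and 0.763 in AOC3-LN, and 0.803 in AOC11 against 0.545 in AOC11-LN. On chromosome 1 (below) mt-Nd4l has a whole copy and mt-Nd4 a partial one, so these ratios depend on the copies. With copies added, mt-Nd4l stood above mt-Nd4 in AOC3 (1212.1 against 1142.2 FPKM), AOC3-LN (993.1 against 937.9) and AOC11 (1430.3 against 1282.5). In AOC11-LN it stood below (382.2 against 492.6 FPKM). As for the ATP synthase pair, the shorter gene of the shared transcript was low against its partner in AOC11-LN. mt-Cytb (chrM:14145-15288) encodes cytochrome b, the mitochondrially encoded subunit of complex III, which passes electrons from ubiquinol to cytochrome c. Its level was 1844 FPKM in AOC3, 1748 FPKM in AOC3-LN, 2138 FPKM in AOC11 and 1053 FPKM in AOC11-LN, again with AOC11 highest and AOC11-LN lowest.

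**Figure D1:**
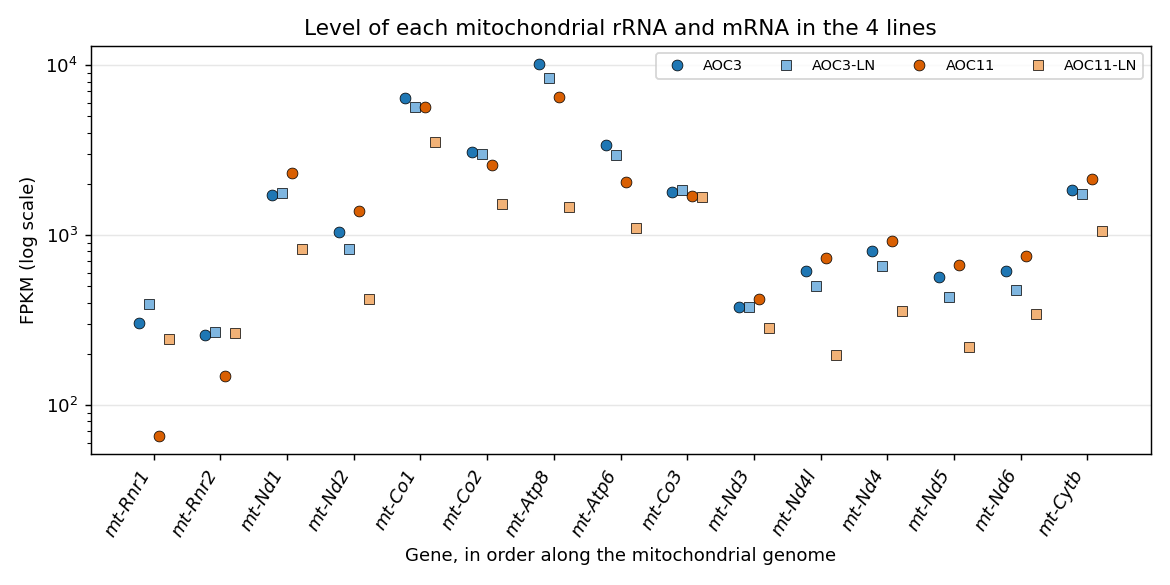
FPKM (log scale) of the 2 mitochondrial rRNAs and 13 mRNAs in their order along the mitochondrial genome, 1 point per line (circles, primary lines; squares, lymph node lines). AOC11-LN is the lowest point for all 13 mRNAs, while AOC11 is the lowest for both rRNAs.

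The first comparison was between each lymph node line and the primary line of the same mouse. In the AOC11 mouse all 13 mitochondrial mRNAs were lower in AOC11-LN than in AOC11, 9 of them past a log2 difference of -1, with a median of -1.20 and a range of -2.66 to -0.13. Among all entries 3.14% were lower past that size in this pair, and 3.08% among the 1038 nuclear entries with a mean of 100 FPKM or more. The median of all entries was -0.02. Without quantile normalization all 13 mRNAs were again lower, with a median of -1.14, and 8 passed, since mt-Atp6 then stood at -0.90. In bulk RNA, fewer transcripts per cell and fewer cells that carry them cannot be told apart.

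Of the 7 complex I subunits 6 were past -1, with a median of -1.48. mt-Nd4l differed by -1.83, mt-Nd2 by -1.76, mt-Nd1 by -1.60, mt-Nd5 by -1.48, mt-Nd4 by -1.35 and mt-Nd6 by -1.10. mt-Nd3, at -0.59, was the exception. As a share of the AOC11 level in FPKM, without quantile normalization, 30.3% of mt-Nd2, 32.7% of mt-Nd5, 35.9% of mt-Nd1 and 67.3% of mt-Nd3 was left in AOC11-LN. mt-Cytb of complex III differed by -1.20 (-1.02 without quantile normalization), with 49.3% left.

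The complex IV subunits lay closer to their levels in AOC11. None of the 3 passed -1, with mt-Co2 at -0.93, mt-Co1 at -0.86 and mt-Co3 at -0.13. The shares left were 59.6%, 62.5% and 97.5%, and without quantile normalization the differences were -0.75, -0.68 and -0.04. Both ATP synthase subunits passed. mt-Atp6 differed by -1.03, with 53.4% left, and mt-Atp8 by -2.66 (-2.15 without quantile normalization), with 22.5% left. Genes of 1 strand thus differed unequally within this pair of lines. The ratio of mt-Nd2 to mt-Co3 in FPKM was 0.583 in AOC3 and 0.454 in AOC3-LN, and 0.816 in AOC11 against 0.253 in AOC11-LN. These genes lie near opposite ends of the differences in the AOC11 pair, so their ratio restates that spread. The ratio of mt-Nd1 to mt-Nd5 moved less in that pair, at 3.46 in AOC11 and 3.80 in AOC11-LN. It was 3.05 in AOC3 and 4.09 in AOC3-LN. The reason for the unequal differences was not tested.

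In the AOC3 mouse the same comparison gave small differences. None of the 13 mRNAs passed a log2 difference of 1 between AOC3-LN and AOC3, with a median of -0.03 and a range of -0.36 to 0.21, where 3.42% of all entries passed as lower and 2.11% as higher. The complex I genes mt-Nd2 and mt-Nd5 were lowest at -0.36 each, then mt-Nd6 at -0.34 and mt-Nd4l at -0.28. mt-Co2 was highest at 0.21 and mt-Atp8 stood at 0.15. Without quantile normalization 4 of the 13 signs turned, mt-Co2 to -0.03, mt-Atp8 to -0.27, mt-Atp6 from 0.02 to -0.20 and mt-Co3 from -0.03 to 0.03, and 10 mRNAs were then lower and 3 higher with a median of -0.20. For these 4 the direction depended on the scaling. With 1 library per line, the difference between the 2 pairs was not tested.

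**Figure D2:**
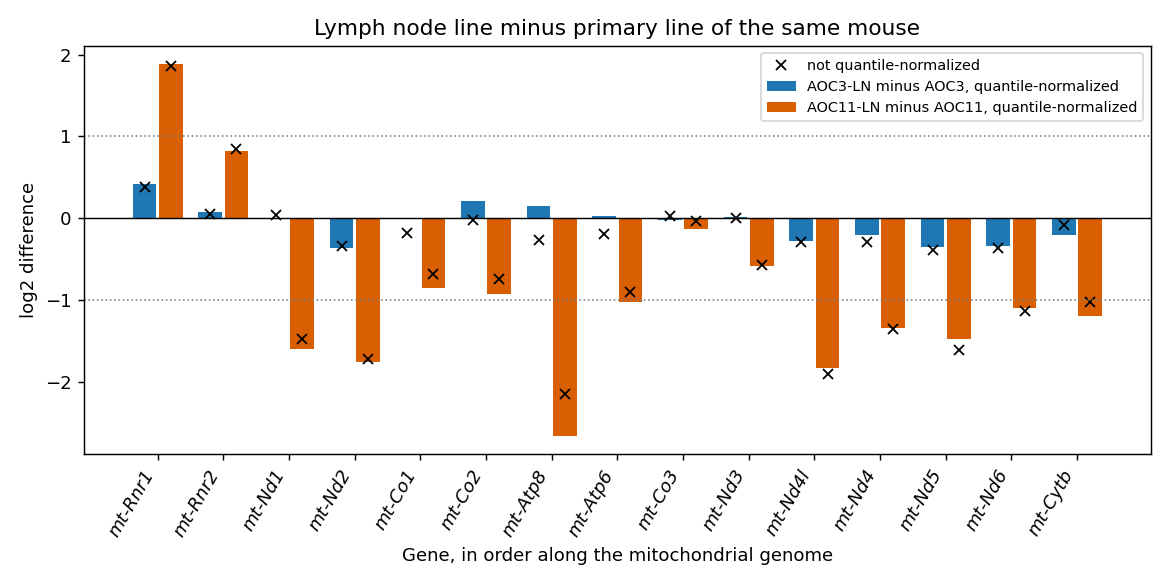
log2 difference of the lymph node line minus the primary line of the same mouse for each mitochondrial rRNA and mRNA (bars, quantile-normalized log2(FPKM + 1); crosses, without quantile normalization; dotted lines at -1 and 1). In the AOC11 mouse all 13 mRNAs lie below 0 and mt-Rnr1 reaches 1.88, while the AOC3 mouse stays between -0.36 and 0.42.

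A stretch of chromosome 1 holds a copy of part of the mitochondrial genome, annotated as unprocessed pseudogenes on the minus strand. In a search of all annotated transcripts, 7 of the 13 mRNAs had a copy there. The copies held the whole gene for mt-Atp6 (Gm10925, chr1:24613974-24614651), mt-Co2 (Gm28661), mt-Co3 (Gm28437), mt-Nd3 (Gm28438) and mt-Nd4l (Gm10222), and part of it for mt-Nd4 (Gm28439, 63.6% of the gene) and mt-Co1 (Gm29216, 31.3%). All were at least 99.71% identical over the aligned bases. The 5 whole copies were listed at 0.95 to 1.019 times the FPKM of their gene in each of the 4 lines. Fragments of a gene and of its copy could not be told apart by sequence, so the values of these 7 genes are uncertain by what was given to the copies. With the FPKM of the copies added as listed, the summed mRNA share of all FPKM was 6.63% for AOC3 and 6.27% for AOC3-LN. For the other mouse it was 5.94% (AOC11) against 2.90% (AOC11-LN). The levels of single genes with copies added were computed otherwise, with each copy scaled to the length of its gene. For mt-Co1 in AOC3, the copy was listed at 4438.73 FPKM, but gene and scaled copy came to 7850.3 FPKM. The partial copies of mt-Co1 and mt-Nd4 thus weigh more in these shares than in those levels.

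In AOC11-LN against AOC11, the 7 mRNAs with a copy had a median of -0.93 and 3 passed -1, while the 6 with none found there had a median of -1.54 and all 6 passed. Without mt-Atp8 the latter median was -1.48, over 5 genes. Genes with whole copies took both ends of the range, since mt-Nd4l was at -1.83 and mt-Co3 at -0.13. When gene and copy were summed, mt-Nd4l differed by -1.90, mt-Nd4 by -1.38, mt-Atp6 by -0.90, mt-Co2 by -0.75, mt-Co1 by -0.66, mt-Nd3 by -0.57 and mt-Co3 by -0.04, all without quantile normalization. These sums kept the order of the genes taken alone, but for the 5 whole copies they could hardly do otherwise. Those copies were listed close to the level of their gene in each line, so the sums are no separate check. Copies on other chromosomes were listed at 147 FPKM or less. An unannotated copy would not have been found. That bears on mt-Atp8, which was counted as having none but lies between mt-Co2 and mt-Atp6, both with whole copies on chromosome 1. Its last 43 bases, shared with mt-Atp6, are part of the copy of mt-Atp6.

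**Figure D3:**
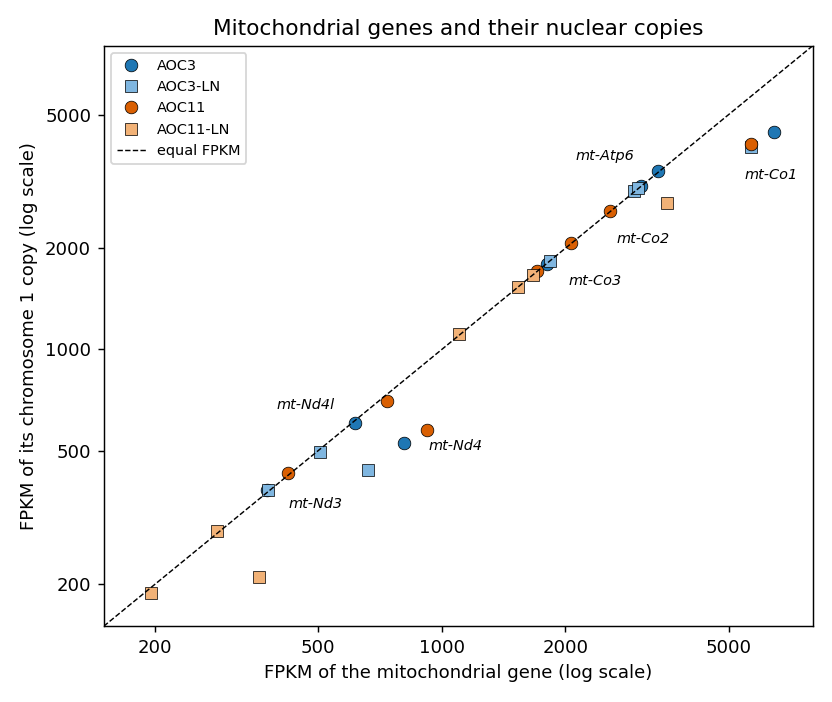
FPKM of the chromosome 1 copy against FPKM of the mitochondrial gene (both log scales) for the 7 mRNAs with such a copy, 1 point per line, with each gene named beside its AOC3 point and the dashed line at equal FPKM. The 5 genes with whole copies lie on the line at 0.95 to 1.019 times the gene, and mt-Co1 and mt-Nd4, with partial copies, lie below it.

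The second comparison set the lines of the AOC3 mouse against those of the AOC11 mouse at each site. Between the primary lines none of the 13 mRNAs passed a log2 difference of 1, against 11.9% of all entries in either direction. The median of AOC3 minus AOC11 was -0.13, with 11 lower and 2 higher in AOC3, and 8 lower and 5 higher without quantile normalization. mt-Co1, mt-Co2 and mt-Atp8 changed sign between these scalings, from -0.14 to 0.18, from -0.04 to 0.25 and from -0.15 to 0.63. mt-Atp6 was the largest at 0.57 (0.71 without quantile normalization), and mt-Nd1 the lowest at -0.45 (-0.43). All 7 complex I genes were lower in AOC3 than in AOC11 under both scalings, by 0.45 or less.

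Between the lymph node lines all 13 mRNAs were higher in AOC3-LN than in AOC11-LN, 8 of them past 1, with a median of 1.03, where 7.58% of all entries and 6.17% of the highly expressed nuclear entries passed as higher. This comparison shares AOC11-LN with the one above. mt-Atp8 differed by 2.66, mt-Atp6 by 1.62, mt-Nd4l by 1.41, mt-Nd1 by 1.15 and mt-Nd2 by 1.12. mt-Co3 was the smallest at 0.19. Without quantile normalization 4 passed, mt-Atp8, mt-Atp6, mt-Nd4l and mt-Nd1 (2.51, 1.41, 1.36 and 1.09), since the others near the threshold, such as mt-Nd2 (0.98), mt-Nd5 (0.98) and mt-Co2 (0.97), then stood just below it.

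**Figure D4:**
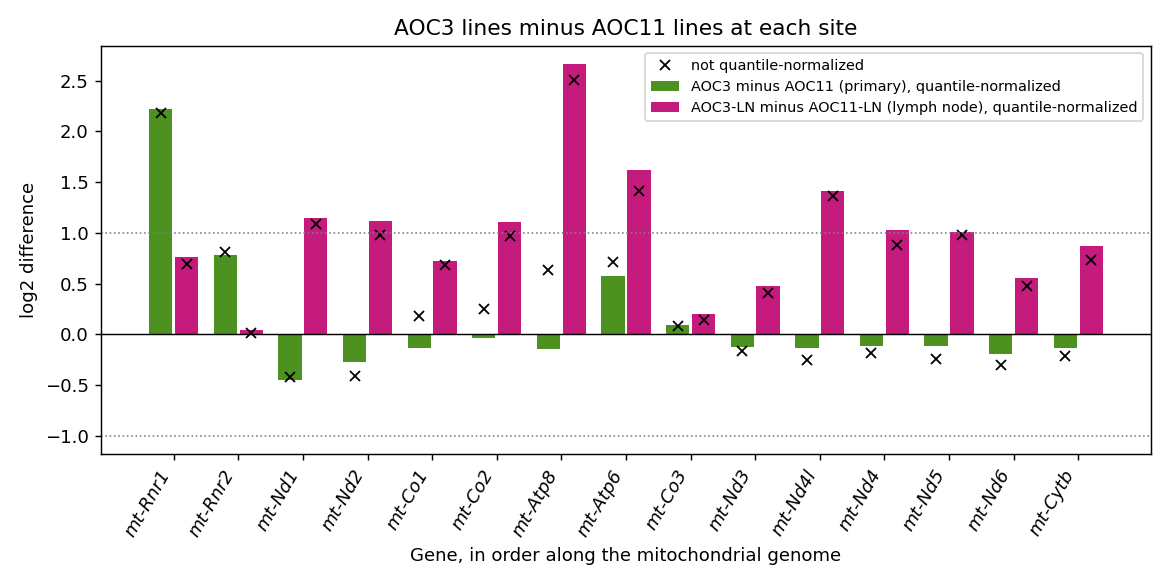
log2 difference of the AOC3 line minus the AOC11 line at each site for each mitochondrial rRNA and mRNA (bars, quantile-normalized log2(FPKM + 1), green for primary and pink for lymph node lines; crosses, without quantile normalization; dotted lines at -1 and 1). The 13 mRNAs lie between -0.45 and 0.57 at the primary site and between 0.19 and 2.66 at the lymph node.

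With the primary and the lymph node line of each mouse standing in for replicates, limma's moderated test over all 14165 entries called none of the 13 mRNAs at an adjusted p under 0.05, where it called 0.205% of all entries. Each side is 1 mouse, so the test describes these lines. All 13 differences were positive, with a median of 0.42, and 2 passed a log2 difference of 1, mt-Atp8 and mt-Atp6, where 5.1% of all entries passed as higher. mt-Atp6 had the lowest p, at a difference of 1.10 (SE 0.37, unadjusted p = 0.0307, adjusted p = 0.225 in limma), and was the only one of the 13 with an unadjusted p under 0.05, which 18.7% of all entries had. It was higher in both AOC3 lines than in both AOC11 lines. mt-Atp8 differed by 1.26 (SE 0.86, adjusted p = 0.476 in limma). Across the settings tried, the lowest adjusted p of any mRNA lay between 0.15 and 0.715. When AOC11 was left out, 10 mRNAs had an unadjusted p under 0.05, beside 20.6% of all entries. That fit holds AOC11-LN alone on its side, takes the spread from the AOC3 lines and assumes the lone library to vary like them. The sign of the median rested on AOC11-LN, since it was -0.22 without that line and 1.13 without AOC11.

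The rRNAs form the core of the mitochondrial ribosome, with mt-Rnr1 (12S, chrM:70-1024) in the small and mt-Rnr2 (16S, chrM:1094-2675) in the large subunit. Between AOC11 and AOC11-LN both went against the mRNAs. mt-Rnr1 was listed at 302 FPKM in AOC3, 393 FPKM in AOC3-LN, 66.0 FPKM in AOC11 and 243 FPKM in AOC11-LN. mt-Rnr2 was listed at 259 FPKM, 268 FPKM, 147 FPKM and 266 FPKM. AOC11, the highest line for mt-Nd1 and mt-Cytb, was the lowest for both rRNAs, and the other 3 lines lay close together for mt-Rnr2. In AOC11-LN minus AOC11 the difference was 1.88 for mt-Rnr1 and 0.82 for mt-Rnr2, beside 4.97% of all entries higher past 1. In AOC3-LN minus AOC3 it was 0.42 and 0.08. Between the mice, mt-Rnr1 differed by 2.22 at the primary site and by 0.76 at the lymph node, and limma gave 1.49 over both sites (SE 0.63, adjusted p = 0.293). The ratio of mt-Rnr1 to mt-Rnr2 was 1.17, 1.47, 0.448 and 0.914 in AOC3, AOC3-LN, AOC11 and AOC11-LN, and that of mt-Rnr2 to its downstream neighbour mt-Nd1 was 0.151, 0.152, 0.0638 and 0.321. The libraries were made from poly(A)-selected RNA, in which these rRNAs are largely left out, and the part of that selection in their differences was not tested.

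The tRNA genes are 66 to 71 bases long, shorter than a read of 100 bases, so their FPKM rests on almost no effective length. Of the 7 in the table, mt-Tm, mt-Tn, mt-Tc and mt-Tp were listed at 0 in all of the lines. The sequences of the other 3, each on the minus strand of chrM (GRCm38/mm10), are shown because their length is what limits their values: mt-Ts1 for serine (chrM:6870-6938), mt-Te for glutamate (chrM:14071-14139) and mt-Ty for tyrosine (chrM:5260-5326).
mt-Ts1: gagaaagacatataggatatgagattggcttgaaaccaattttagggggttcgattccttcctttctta
mt-Te: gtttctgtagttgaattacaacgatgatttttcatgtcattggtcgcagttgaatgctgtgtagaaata
mt-Ty: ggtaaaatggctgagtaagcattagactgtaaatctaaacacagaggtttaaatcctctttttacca

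mt-Ts1 was listed at 11870.3 FPKM in AOC3, 5074 FPKM in AOC3-LN, 0 in AOC11 and 5889 FPKM in AOC11-LN. mt-Te was listed at 5935 FPKM in AOC3 and at 0 in the other lines, and mt-Ty at 7239 FPKM in AOC11-LN and at 0 in the other lines. In AOC3 mt-Ts1 was 2.0 times mt-Te. Values that jump between 0 and the height of mt-Co1 carry no usable level, and no fold is given against a line listed at 0. mt-Ty and mt-Ts1 flank mt-Co1 on the opposite strand, and mt-Ts1 overlaps its end by 3 bases. Where strand was not used, fragments of the mt-Co1 precursor that cover them cannot be told apart from theirs.

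These tRNA values weigh on any total for the mitochondrial genome. As a share of the summed FPKM of a library, all 22 genes together made up 7.22% in AOC3 and 5.16% in AOC3-LN, and 4.17% in AOC11 against 3.73% in AOC11-LN, of which tRNAs made up 2.54%, 0.762%, 0% and 1.84%. The 13 mRNAs alone took 4.60%, 4.30%, 4.14% and 1.82%. Without mt-Atp8 the mRNAs summed to 22251.6 FPKM in AOC3, 20237.9 FPKM in AOC3-LN, 21337.4 FPKM in AOC11 and 11537.0 FPKM in AOC11-LN. AOC3 and AOC11 then lay close together, and AOC11-LN stayed the lowest. The total of all 22 genes was thus close in AOC11 and AOC11-LN, and that of the mRNAs was not. Within the mRNA total as listed, without chromosome 1 copies, complex IV made up 34.9% in AOC3 and 36.8% in AOC3-LN, and 35.7% in AOC11 against 51.8% in AOC11-LN. Complex I made up 17.8%, 17.6%, 25.9% and 20.4%, and ATP synthase, which as listed is mostly mt-Atp8, made up 41.6%, 39.5%, 30.8% and 19.7%. Complex III, which is mt-Cytb alone, made up 5.70%, 6.11%, 7.68% and 8.10%. In these shares the AOC3 lines were closer to each other than the AOC11 lines in complexes I and IV and in ATP synthase, and about as close in complex III. The shares depend on mt-Atp8, which is part of the total. Complex I summed to 5739.2, 5042.3, 7198.8 and 2650.1 FPKM, and complex IV to 11297.5, 10509.3, 9938.8 and 6731.9 FPKM. Against the total without mt-Atp8, complex I had its lowest share in AOC11-LN. Complex IV kept its highest share there, but nearer to the AOC3 lines. Among the 100 highest entries of a library were 8 of the 13 mRNAs in AOC3 and also in AOC11, 7 in AOC3-LN and 4 in AOC11-LN.

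The nuclear genes of the same complexes did not share the lower level of AOC11-LN. Of 72 nuclear subunit genes of complexes I, III, IV and ATP synthase, none passed a log2 difference of 1 in either direction in AOC11-LN minus AOC11, beside 8.11% of all entries, and 56 were higher and 16 lower, with a median of 0.17 and a range of -0.44 to 0.61. For complex I the median was 0.19 over 36 nuclear genes beside -1.48 over the 7 mitochondrial ones. For complex IV it was 0.32 over 10 nuclear genes, 9 of them higher, beside -0.86 over the 3 mitochondrial ones. For complex III and ATP synthase it was 0.05 over 9 and 0.03 over 17 nuclear genes. Cox5b of complex IV was the highest of its list in this pair, at 270.1 FPKM, 227 FPKM, 190.1 FPKM and 298 FPKM in AOC3, AOC3-LN, AOC11 and AOC11-LN, a difference of 0.61. Uqcrh of complex III differed by 0.60 and Ndufa3 of complex I by 0.59. Atp5a1, the alpha subunit of ATP synthase, was the lowest at -0.44. In AOC3-LN minus AOC3 none of the 72 passed either, beside 5.53% of all entries, and the median was -0.02.

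**Figure D5:**
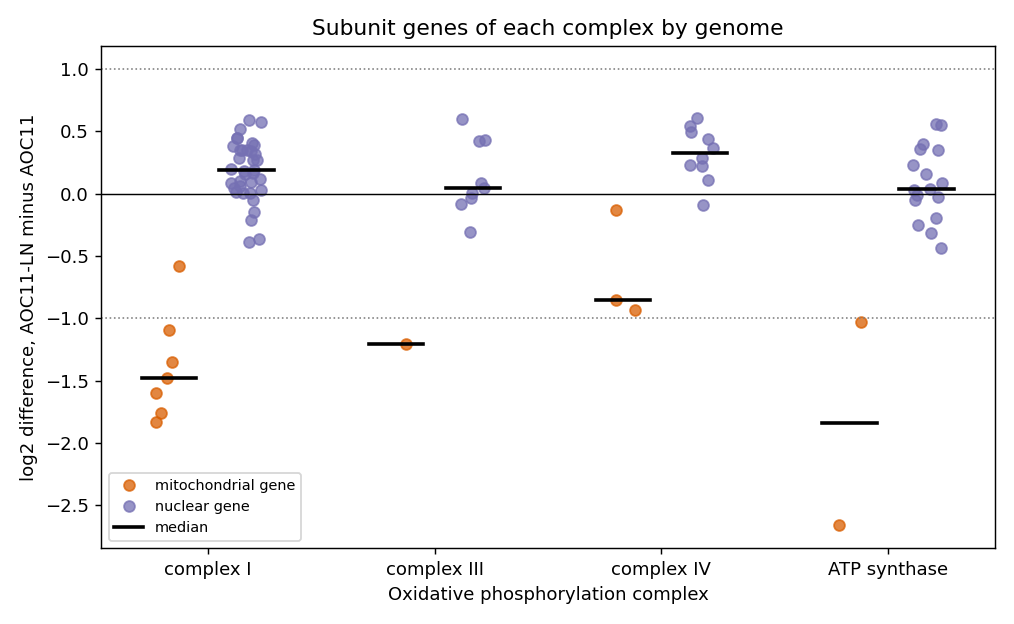
log2 difference of AOC11-LN minus AOC11 (quantile-normalized log2(FPKM + 1)) for the subunit genes of each complex, 1 point per gene, mitochondrial genes in orange and nuclear genes in purple, with the median as a bar and dotted lines at -1 and 1. All 72 nuclear genes lie between -0.44 and 0.61, and the mitochondrial genes lie between -2.66 and -0.13.

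Of 145 expressed genes that copy, transcribe, process or translate mitochondrial RNA, none passed in AOC11-LN minus AOC11, beside the same 8.11% of all entries, with a median of 0.04 and a range of -0.92 to 0.77. Tfam, which packages mitochondrial DNA and starts its transcription, stood at 39.9 FPKM in AOC3, 38.1 FPKM in AOC3-LN, 39.4 FPKM in AOC11 and 37.0 FPKM in AOC11-LN. Polrmt, the polymerase, stood at 11.9 FPKM, 14.4 FPKM, 12.3 FPKM and 12.3 FPKM. In AOC11-LN minus AOC11 the differences were -0.09 for Tfam and -0.03 for Polrmt. Twnk, the helicase of mitochondrial DNA replication, was higher in AOC11-LN than in AOC11 (31.0 against 19.8 FPKM, 0.65). The medians of the replication and transcription list (24 genes) and of the RNA processing list (31 genes) were -0.11 and -0.15.

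Among the RNA processing genes, Lrpprc, which with SLIRP stabilizes mitochondrial mRNAs, was lowest in AOC11-LN, at 22.7 FPKM, 29.1 FPKM, 27.4 FPKM and 18.0 FPKM in AOC3, AOC3-LN, AOC11 and AOC11-LN. Its difference was -0.56 in the AOC11 pair and 0.36 in the AOC3 pair. Pde12, which removes poly(A) tails from mitochondrial RNA, was the lowest of the list at -0.92, followed by Fastkd1 at -0.91, and Rpusd3, a mitochondrial pseudouridine synthase, was the highest at 0.75. Gfm1, a mitochondrial elongation factor, stood at -0.71. Of 78 mitochondrial ribosomal protein genes, with a median of 0.11, Mrpl23 was the highest at 0.77. In AOC3-LN minus AOC3 the 145 genes had a median of 0.12, and Ppargc1b, a coactivator of mitochondrial biogenesis, passed alone at -1.60, from 3.15 to 0.292 FPKM. In that pair 5.53% of all entries passed in either direction. Ppargc1b was lower in AOC11-LN than in AOC11 as well, at -0.70, though under 1 FPKM in both (0.592 and 0.088 FPKM). Its relative Ppargc1a did not reach 1 FPKM in any of the lines.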

How the data were processed

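Per the labels and the study's methods, RNA was extracted with TRIzol, poly(A) libraries were made with a stranded kit and sequenced as paired reads. The authors trimmed reads with Trim Galore, aligned them to mm10 with TopHat2 and deposited Cufflinks FPKM for GENCODE M21 genes (tool versions not given in the sources used here). The methods name log2 and quantile normalization, but the deposited FPKM values carry neither. All 22 mitochondrial entries matched the annotated positions.

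Entries with 1 FPKM or more in at least 1 line (14165) were kept, log2(FPKM + 1) was quantile-normalized with limma 3.58.1 in R 4.3.3, and differences were taken between lines. A fold on this scale understates the change of low genes. The AOC3 against AOC11 contrast was fitted with limma (lmFit, eBayes with trend, Benjamini-Hochberg over all kept entries). Fragments per library were estimated from the FPKM of 9520 single-transcript genes longer than 800 bases: 71.5% to 74.9% of low values fell within 0.1 of a whole fragment, where 20.0% would by chance. Nuclear copies were searched for among M21 transcripts with blastn 2.17.0 (identity of 90% and 100 aligned bases or more). Alternatives were a pseudocount of 0.1, other filters and scalings, leaving out mt-Atp8, each line or the tRNAs, and the site as a block. The members and gene lists were chosen with earlier results of these data known. Named were all mRNAs and rRNAs, the highest tRNAs, the nuclear list members with the largest differences between paired lines, and Tfam, Polrmt, Lrpprc and Ppargc1a as regulators.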

Additional observations from a re-analysis of the deposited data

Results flagged for a closer look

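In 5 genes, mt-Ts1 included, the lymph node line lay to opposite sides of its primary line in the 2 mice. The difference between the mice was not tested, since each pair is 1 library against 1. mt-Co2 differed by -0.93 in the AOC11 pair and by 0.21 in the AOC3 pair, mt-Atp8 by -2.66 and 0.15, mt-Atp6 by -1.03 and 0.02, and mt-Nd3 by -0.59 and 0.01. Without quantile normalization the AOC3 pair stood at -0.03 for mt-Co2, -0.27 for mt-Atp8, -0.20 for mt-Atp6 and 0.00 for mt-Nd3, so the opposite direction of mt-Co2, mt-Atp8 and mt-Atp6 depended on that step. mt-Ts1 was listed at 0 in AOC11 and at 5889 FPKM in AOC11-LN, and at 11870.3 FPKM in AOC3 and 5074 FPKM in AOC3-LN, and no fold is given for it.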

How the results depend on the processing

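Without quantile normalization the median over the 13 mRNAs was -0.20 in AOC3-LN minus AOC3, -1.14 in AOC11-LN minus AOC11, -0.19 in AOC3 minus AOC11, 0.97 between the lymph node lines and 0.35 over both sites. Scaling by the median of expressed nuclear genes gave -0.10, -1.15, -0.17 and 1.11 in the first 4. Without mt-Atp8 the medians were -0.11 in the AOC3 pair, -1.15 in the AOC11 pair, 1.02 between the lymph node lines and 0.40 over both sites, where 1 mRNA passed. With chromosome 1 copies added and no quantile normalization, an alternative chosen after seeing the data that changes both at once, they were -0.20, -1.14, -0.17, 0.97 and 0.37. Because the whole copies were listed close to their genes in each line, adding them could hardly move these medians and is no separate check. In the lymph node lines 4 mRNAs instead of 8 passed without quantile normalization, and also 4 when copies were added on that scale. Leaving out 1 line moved the median over both sites from -0.22 (without AOC11-LN) to 1.13 (without AOC11) and the number past 1 from 0 to 8, and the difference of mt-Atp8 ranged from -0.074 without AOC11-LN to 2.59 without AOC11. With the mRNAs alone the mitochondrial shares were 4.60%, 4.30%, 4.14% and 1.82%, and with FPKM multiplied by transcript length, over the same sum for all entries, the shares of all 22 genes were 1.77%, 1.54%, 1.51% and 0.889%. Of 22 gene differences past 1, tried under 3 scalings each, all 66 values kept their sign and 60 stayed past 1. With the site as a block the lowest adjusted p of an mRNA in limma was 0.236, and none was called. Depth limits none of the mRNAs over 500 bases, and the lack of replicate libraries limits every comparison.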
